A study of Arabidopsis thaliana with 6 samples.

Results

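Aliphatic glucosinolates are sulfur-rich defence compounds that Arabidopsis builds from methionine, and 10 genes of their synthesis, found by gene identifier, are described here out of the 23640 features of the count table. RNA had been sequenced from whole Arabidopsis thaliana seedlings (ecotype Col, age 14 days), grown in vitro and depleted of ribosomal RNA. The 6 libraries form 2 groups of 3, one of wild-type plants and one of plants with atrx-1, a mutant allele of the chromatin remodeler gene ATRX, in the same Col background. No treatment is labelled for either group, and the labels say neither whether seedlings were pooled nor whether replicates were separate cultures, so p-values speak of the spread among these libraries only, and that spread may be technical. All 10 genes passed the low-count filter and were tested.

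The pathway has a chain-elongation, a core and a side-chain stage. During elongation methionine is turned into a 2-oxo acid, lengthened in repeated rounds in the chloroplast and returned to an amino acid, and the number of rounds sets the length of the side chain. Core enzymes then convert the elongated amino acid through an aldoxime and a thiohydroximate to the glucosinolate, and side-chain enzymes oxidise or trim the finished molecule. In the intact plant the compounds are stored apart from myrosinases, which release toxic products when tissue is damaged.

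The closest relatives within the group are the neighbouring cytochrome P450 genes CYP79F1 and CYP79F2, and their likeness bears on how reads can be assigned. Over 91.4% of aligned coding positions they are identical, and the longest stretch without a difference is 100 bases. A 120-base window around that stretch is printed here from TAIR10.1, the RefSeq build, with differing bases in capitals. CYP79F1 is at chr1:5609946-5610065 and CYP79F2 at chr1:5606378-5606497, both on the plus strand.
CYP79F1: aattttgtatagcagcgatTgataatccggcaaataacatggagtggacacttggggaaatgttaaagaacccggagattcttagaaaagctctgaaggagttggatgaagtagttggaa
CYP79F2: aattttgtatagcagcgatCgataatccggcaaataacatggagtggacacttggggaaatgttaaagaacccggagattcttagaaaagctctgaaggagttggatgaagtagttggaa
The window holds 1 difference. Of all 50-base windows in the CYP79F1 coding sequence, 3.44% occur unchanged in CYP79F2, so that short reads from there cannot be assigned to one gene, and the split between both genes is to that extent uncertain. No source used here gives the read length or says how reads with several matches were treated.

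The chain-lengthening synthases MAM1 and MAM3 are also neighbours, on chromosome 5, but are less alike, with 83.8% identity over aligned coding positions and no more than 30 identical bases in a row. The most similar 120 bases around that run are shown to set them against the P450 pair, again with differences in capitals, at chr5:7704366-7704485 for MAM1 and chr5:7719018-7719137 for MAM3 (TAIR10.1, plus strand).
MAM1: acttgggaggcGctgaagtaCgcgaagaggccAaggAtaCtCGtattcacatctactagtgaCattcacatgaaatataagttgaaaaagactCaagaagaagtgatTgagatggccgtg
MAM3: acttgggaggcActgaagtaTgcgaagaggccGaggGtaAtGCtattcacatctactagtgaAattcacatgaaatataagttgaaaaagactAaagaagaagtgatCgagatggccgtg
Here 10 bases differ. No 50-base window of the MAM1 coding sequence occurs in MAM3. Among the other relatives compared in this way, only the S-oxygenase gene GS-OX1 shared any such window, 0.3% of its windows with GS-OX2.

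Library totals ranged from 936243 counts in wild-type library 2 to 14001726 in mutant library 1. Across 13819 tested features edgeR's quasi-likelihood test called 16 genes at an adjusted p under 0.05, which is 0.116% of them, all lower in the mutant. ATRX, the targeted gene, had a level of 5.38 ± 0.529 CPM (TMM-scaled count relative to the library total; SD, n = 3) in wild-type plants and 1.29 ± 0.598 CPM (SD, n = 3) in the mutant, from 3 to 18 counts per library, with an edgeR adjusted p of 0.0536. The deviation of nuclear genes from their own mean over the 6 libraries moved with gene length. Its log2 slope per doubling of length was -0.23 to -0.06 in the wild-type libraries and 0.15 to 0.16 in the mutant libraries. These slopes compare libraries with each other and are not slopes of expression level on length. The glucosinolate genes lie between 1267 and 1878 nt, around the median of 1548 nt over all tested features. Green-tissue markers were abundant in every library, 5 of 8 root markers were tested, and of the 4 flower markers none passed the low-count filter, with AP3 at 0 counts in all libraries. The summed level of the root markers was 28.4 to 30.3 CPM in wild-type plants and 19.9 to 24.2 CPM in the mutant, and that of the 4 seed markers 37.8 to 132 CPM and 14.7 to 39.4 CPM. The tested root markers were split, and none was called in edgeR. CASP1, EXPA7 and TIP2;3 were lower in every mutant library than in every wild-type library. Their log2 fold changes were -0.86, -0.74 and -0.88, and -0.56, -0.53 and -0.68 with the length trend removed. SCR was higher in every mutant library (log2 fold change 0.24, but -0.025 with the length trend removed). SHR was at 0.58 with overlapping groups (0.43 with the length trend removed). NRT2.1 of the root list was at 0 counts in all 6 libraries. The part of root and seed RNA in the comparisons of genotypes was not tested. In whole seedlings fewer cells of a type and less RNA per cell cannot be told apart.

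None of the 10 genes passed the threshold in edgeR (0 of 10, against 0.116% of all tested features), in DESeq2 (3.47% of the features with an adjusted p) or in the authors' deposited table (7.06%). MAM3, CYP79F2, GS-OX1 and AOP2 have no adjusted p in either of the last 2 sources. The deposited table is not a like comparison, since its fit is not known. It gives log2 fold changes for NRT2.1 (-0.023) and AP3 (-0.031), both at 0 counts in all 6 libraries. For ATRX it gives -1.29, where edgeR and DESeq2 gave -2.09. The adjusted p-values of the 10 genes in edgeR lay between 0.118 and 0.954, and 2 had an unadjusted p under 0.05, where 19.5% of all tested features did. By the sign of the fitted log2 fold change 6 genes had lower values in the mutant, as did 48.8% of all tested features, and 4 had higher values, with a median log2 fold change of -0.17 beside 0.01 over all tested features. The largest differences in edgeR were in AOP2, a side-chain gene, and MAM3, both with lower mean levels in the mutant, that of MAM3 through wild-type library 1. Genes of the central enzymes MAM1 (-0.043) and CYP79F1 (0.057) had log2 fold changes near 0, and for CYP79F1 and GS-OX1 the mean CPM was slightly lower in the mutant although the fitted value was above 0.

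Among the elongation genes, MAM1 (AT5G23010, TAIR10 chromosome 5, 7703092 to 7706896) encodes the methylthioalkylmalate synthase of the first elongation rounds. Its level was 45.7, 73.2 and 38.1 CPM in wild-type libraries 1, 2 and 3 and 47.1, 54.3 and 45.6 CPM in the 3 mutant libraries, here and below in the order of their numbers. All mutant values lay within the wild-type range. The log2 fold change was -0.043 ± 0.24 (SE), with a 95% interval of -0.55 to 0.47 and an edgeR adjusted p of 0.951, and it was 0.20 without wild-type library 2.

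MAM3 (AT5G23020, TAIR10 chromosome 5, 7718121 to 7721839), whose enzyme also makes the longest side chains, stood at 20.8, 7.65 and 5.21 CPM in the wild-type libraries and at 5.29, 4.57 and 9.57 CPM in the mutant libraries. Wild-type library 1 was far above the rest, and the other 5 libraries overlapped. The counts behind these values were 69, 7 and 16 in the wild type and 77, 19 and 30 in the mutant. MAM3 had a log2 fold change of -0.99 ± 0.45 (SE; edgeR adjusted p = 0.25). The authors' deposited table, whose fit is not known, gave -0.040 with p = 0.898. Without wild-type library 1 the edgeR log2 fold change was 0.035, so the lower mean of the mutant rests on that library. The same library had the highest summed level of seed markers, 132 CPM against 14.7 to 76.5 CPM in the others, and the part of seed-derived RNA in the MAM3 value was not tested.

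BCAT4 (AT3G19710, TAIR10 chromosome 3, 6846969 to 6849497), the aminotransferase that removes the amino group of methionine and so opens the elongation cycle, was at 42.1, 63.4 and 40.7 CPM in wild-type plants and 35.1, 41.3 and 38.0 CPM in the mutant. Mutant library 2 lay above wild-type library 3, so the groups overlapped. Its log2 fold change was -0.31 ± 0.21 (SE; edgeR adjusted p = 0.433). BCAT4 overlaps the annotated gene AT3G19700 in TAIR10.1, and no source used here says whether counting used strand.

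Of the core enzymes, CYP79F1 (AT1G16410, TAIR10 chromosome 1, 5608807 to 5611426) oxidises elongated methionine derivatives of all chain lengths to aldoximes. Its values were 24.7, 43.7 and 33.2 CPM in wild-type plants and 36.2, 32.0 and 32.9 CPM in the mutant. The mutant libraries sat together in the middle of the wild-type range. The log2 fold change was 0.057 ± 0.21 (SE), with a 95% interval of -0.41 to 0.52 and an edgeR adjusted p of 0.92, and it was -0.12 without wild-type library 1.

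CYP79F2 (AT1G16400, TAIR10 chromosome 1, 5605159 to 5607473), which acts on long-chain derivatives, was at 6.02, 3.28 and 2.61 CPM in wild-type plants and 4.94, 5.53 and 7.02 CPM in the mutant. Only 3 counts lie behind the value of wild-type library 2, whose exact Poisson 95% interval runs from 0.676 to 9.58 CPM. The groups overlapped, because wild-type library 1 exceeded mutant libraries 1 and 2. CYP79F2 had the highest log2 fold change of the 10 genes, 0.42 ± 0.36 (SE; edgeR adjusted p = 0.559).

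CYP83A1 (AT4G13770, TAIR10 chromosome 4, 7990485 to 7992311), the P450 that oxidises the aldoximes, was the most abundant of the 10 genes. It reached 61.7, 95.1 and 81.1 CPM in wild-type plants and 57.6, 62.0 and 71.8 CPM in the mutant. Wild-type library 1 was below mutant libraries 2 and 3. CYP83A1 had a log2 fold change of -0.30 ± 0.21 (SE; edgeR adjusted p = 0.458). The authors' deposited table gave -0.41 with p = 0.0442 and an adjusted p of 0.211.

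UGT74C1 (AT2G31790, TAIR10 chromosome 2, 13518211 to 13520364), a glucosyltransferase that adds the sugar to thiohydroximates of the aliphatic branch, was at 20.2, 33.9 and 21.8 CPM in wild-type plants and 29.0, 34.6 and 24.6 CPM in the mutant. All mutant libraries exceeded wild-type libraries 1 and 3, while wild-type library 2 lay among them. Its log2 fold change was 0.31 ± 0.23 (SE; edgeR adjusted p = 0.488). An annotated long non-coding RNA and the protein-coding gene AT2G31800 overlap it in TAIR10.1.

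Among the side-chain genes, AOP2 (AT4G03060, TAIR10 chromosome 4, 1351980 to 1353854) belongs to the 2-oxoglutarate-dependent dioxygenases that form alkenyl glucosinolates in other accessions. In the Col reference it is annotated as a pseudogene, both in the authors' table and in RefSeq, which calls it transcribed, and the other 9 genes are annotated as protein-coding. AOP2 was at 10.8, 10.9 and 8.80 CPM in wild-type plants and 6.38, 5.29 and 3.51 CPM in the mutant. All 3 mutant values were below all 3 wild-type values. Counts were 36, 10 and 27 in the wild type and 93, 22 and 11 in the mutant. The log2 fold change was -0.89 ± 0.28 (SE), a 1.85-fold lower level in the mutant, with a 95% interval of -1.49 to -0.28, an unadjusted p of 0.00749 and an edgeR adjusted p of 0.118. With the length trend removed it was -0.79 ± 0.28 (SE; edgeR adjusted p = 0.361). AOP2 therefore had the smallest p of the 10 genes and did not pass the threshold. Non-overlapping groups with lower mutant values were seen in 2 of the 10 genes, AOP2 and MYB28, and in 11.4% of all tested features.

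GS-OX1 (AT1G65860, TAIR10 chromosome 1, 24499066 to 24502745) encodes a flavin monooxygenase that oxidises the sulfur of methylthioalkyl side chains. Levels were 3.91, 9.83 and 11.7 CPM in wild-type plants and 8.92, 8.89 and 7.02 CPM in the mutant. The wild-type libraries ranged more widely than the mutant ones and enclosed them. GS-OX1 had a log2 fold change of 0.060 ± 0.35 (SE; edgeR adjusted p = 0.954), and without wild-type library 1, the lowest, it was -0.40.

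MYB28 (AT5G61420, TAIR10 chromosome 5, 24689151 to 24691095), the main transcriptional activator of the aliphatic branch, was at 14.1, 20.8 and 13.0 CPM in wild-type plants and 12.8, 11.5 and 10.5 CPM in the mutant. The groups were separated only by the small gap between wild-type library 3 and mutant library 1. Its log2 fold change was -0.34 ± 0.23 (SE), with a 95% interval of -0.83 to 0.15 and an edgeR adjusted p of 0.435.

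**Figure D1:**
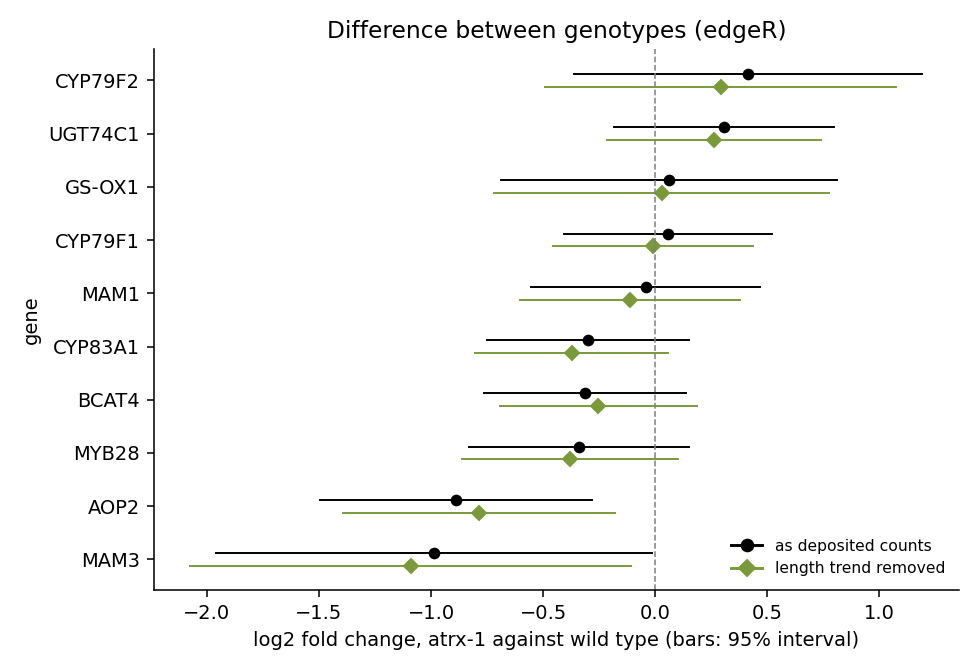
Each gene's log2 fold change of atrx-1 against wild type (x axis) with its 95% interval, from edgeR on the counts as deposited (black circles) and with each library's trend on gene length removed (green diamonds). In the counts as deposited, AOP2 (-0.89) and MAM3 (-0.99) had intervals below 0, and none of the 10 genes passed after adjustment over all features.

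Removing the length trend moved the log2 fold changes of the 10 genes by at most 0.123, in CYP79F2. Their median was then -0.18, with 7 genes lower and 3 higher, and adjusted p-values in edgeR from 0.361 to 0.998. No feature of the table passed in that fit (0 of 13819, or 0%, where 1528 had an unadjusted p under 0.05, and DESeq2 without the correction called 211).

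Levels compared between genes were expressed per length, as CPM per kb of gene length. In the wild type CYP83A1 led with 45.7 ± 9.66 (SD, n = 3), followed by BCAT4 with 35.7 ± 9.29, MAM1 with 30.3 ± 10.7 and CYP79F1 with 19.7 ± 5.53. UGT74C1 followed with 15.5 ± 4.59, MYB28 with 9.89 ± 2.59 and AOP2 with 8.04 ± 0.951. The lowest levels were those of MAM3 (6.23 ± 4.65), GS-OX1 (5.34 ± 2.56) and CYP79F2 (2.11 ± 0.963). Every neighbouring pair in this order overlapped in its range, although from CYP83A1 down to AOP2 each gene was below the one above it in all 3 libraries.

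In the mutant the order per length was CYP83A1 (36.8 ± 4.18; SD, n = 3, as for all values here), MAM1 (28.3 ± 2.69), BCAT4 (27.9 ± 2.29), CYP79F1 (19.6 ± 1.31) and UGT74C1 (18.0 ± 3.09). MYB28 was at 7.20 ± 0.717, GS-OX1 at 5.20 ± 0.686, AOP2 at 3.99 ± 1.15, MAM3 at 3.60 ± 1.50 and CYP79F2 at 3.10 ± 0.570. Ranges of neighbours did not overlap between CYP83A1 and MAM1, BCAT4 and CYP79F1, UGT74C1 and MYB28, or MYB28 and GS-OX1. The top of the order was thus held by CYP83A1, BCAT4, MAM1 and CYP79F1 in both genotypes. Genes of the same stages also stood near the bottom. The elongation gene MAM3 was 8th in the wild type and 9th in the mutant, and the long-chain P450 CYP79F2 was last in both. Over the 6 libraries the mean level of CYP83A1 stood at the 91.7th percentile of tested nuclear features per length, and that of CYP79F2 at the 15.5th.

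**Figure D2:**
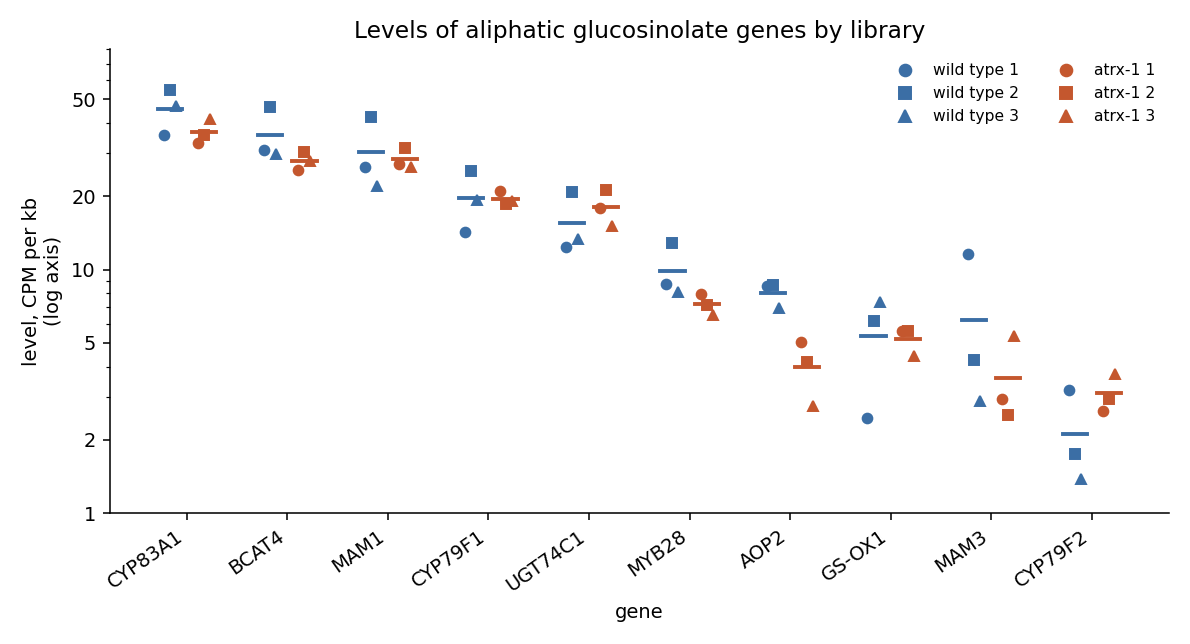
Level of each gene in every library, in CPM per kb on a log axis. Blue symbols are wild-type and orange symbols atrx-1 libraries, the symbol shape gives the library number and bars are group means. Wild-type means run from 45.7 for CYP83A1 down to 2.11 for CYP79F2, with MAM3 in wild-type library 1 and GS-OX1 in the same library far from their group.

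In 9 of the 10 genes the SD of the CPM was larger among the wild-type than among the mutant libraries. This was not particular to them. Among the 31 tested genes of the other aliphatic list, described below, only IPMI-LSU1, GS-OX2, SDI1 and GTR1 lacked the larger wild-type SD. The share of all tested features with a larger wild-type SD was not determined. Wild-type library 2 had the highest value of all 6 libraries for 6 of the 10 genes and was the highest wild-type library for 7. How many of all tested features were highest in that library was not determined. The median deviation of the 10 genes from their own means was 0.41 on the log2 scale in that library and between -0.12 and -0.05 in the other 5, while the median over all tested features was 0.0017 there. Together the 10 genes took 0.089% of its nuclear counts (Wilson 95% interval 0.0799% to 0.0991%, counting error only). In the other libraries the share was between 0.055% and 0.0679%.

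Summed over the 10 genes, the level was 250.1, 362 and 256 CPM in wild-type libraries 1, 2 and 3 and 243, 260.0 and 250.4 CPM in mutant libraries 1, 2 and 3. Apart from wild-type library 2 the libraries were close to each other. That library is also the shallowest, with 331 counts for the 10 genes, and had the highest sum of green-tissue markers, 18645 CPM against 11059 to 16976 CPM in the others. The part of depth and tissue makeup in its higher values was not tested. Without wild-type library 2, 5 of the 10 genes were lower in the mutant and the median log2 fold change was -0.026, and without wild-type library 1, 7 were lower and the median was -0.24.

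**Figure D3:**
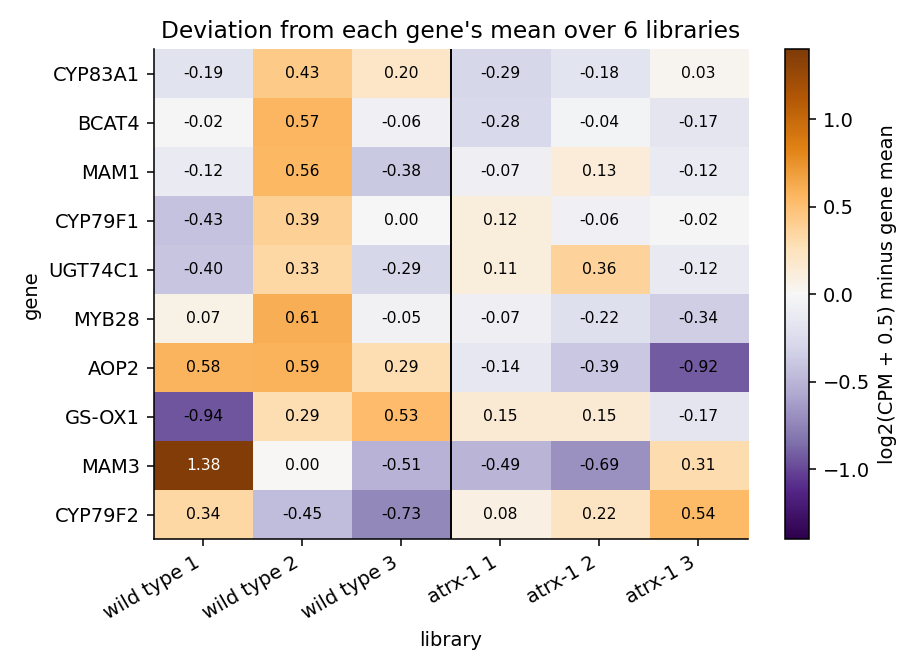
Deviation of log2(CPM + 0.5) from the gene's mean over the 6 libraries, for each gene (rows, in order of level) and library (columns, wild type left of the line). Wild-type library 2 was above the gene mean, by 0.286 or more, in 8 of the 10 genes, and MAM3 in wild-type library 1 (1.38) was the largest deviation.

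Ratios of paired genes within a library do not depend on library scaling. MAM1 exceeded MAM3 per length 2.28, 9.36 and 7.41 times in the wild type and 9.22, 12.1 and 4.90 times in the mutant. Wild-type library 1 had the lowest ratio, and the remaining libraries overlapped. CYP79F1 exceeded CYP79F2 by 4.39, 12.6 and 13.1 times in the wild type and by 7.95, 6.19 and 5.02 times in the mutant, with wild-type library 1 again the lowest. The difference in the mean log2 ratio, mutant minus wild type, was 0.59 for the MAM pair (exact permutation test, two-sided, p = 0.6, n = 3 per group) and -0.52 for the CYP79F pair (exact permutation test, two-sided, p = 0.4).

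CYP83A1 was compared with CYP83B1, its counterpart of the indole branch, and UGT74C1 with UGT74B1, the other glucosyltransferase of the core pathway. The CYP83A1 to CYP83B1 ratio was 1.17, 2.02 and 2.12 in the wild type and 1.36, 1.31 and 1.3 in the mutant, so that the narrow mutant group lay inside the wild-type range (exact permutation test, two-sided, p = 0.4). UGT74C1 to UGT74B1 gave 0.728, 1.07 and 1.03 in the wild type and 1.38, 1.51 and 1.20 in the mutant. Here all mutant libraries exceeded all wild-type libraries, with a difference of 0.55 in the mean log2 ratio (exact permutation test, two-sided, p = 0.1, the smallest that 3 against 3 libraries allow, and 0.5 after Benjamini-Hochberg adjustment over 5 ratios). MYB28 to its paralog MYB29 gave 2.29, 1.33 and 0.898 in the wild type and 1.36, 1.43 and 3.48 in the mutant, which overlapped (exact permutation test, two-sided, p = 0.5). After adjustment over the 5 ratios p was 0.6 for each of the other 4.

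**Figure D4:**
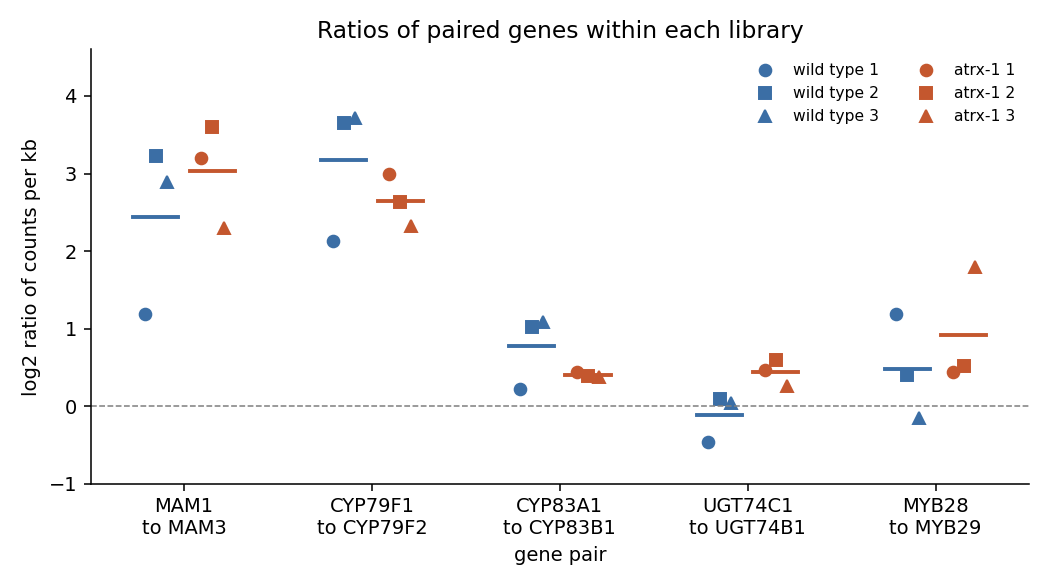
log2 ratio of counts per kb (0.5 added to each count) of paired genes within each library, with wild type in blue, atrx-1 in orange, symbol shape for library number and bars for group means. Only the UGT74C1 to UGT74B1 ratio separated the groups, with all atrx-1 libraries above the wild type.

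A list of 34 other genes of the aliphatic pathway was examined in the same fit, of which 33 were in the table and 31 were tested. In edgeR 0 were called (0.116% of all tested features) and 7 had an unadjusted p under 0.05, a share near the 19.5% of all tested features. DESeq2 called 1, where it called 3.47% of the features with an adjusted p. Lower values in the mutant were found for 21 (48.8% of all tested features) and higher values for 10, with a median log2 fold change of -0.10, which was -0.16 with the length trend removed. By role, 5 of 7 core genes were lower (median -0.28), as were 5 of 6 side-chain genes (median -0.30), 3 of 7 elongation genes (median 0.05) and 4 of 7 regulators (median -0.0025). With the length trend removed the medians were -0.13 for core, -0.27 for side-chain, 0.07 for elongation genes and 0.10 for regulators. Of the regulators 3 of 7 were then lower, and the other 3 counts were the same.

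The pair of list genes with the smallest p were the adenosine 5'-phosphosulfate kinase genes APK1 and APK2, whose product, activated sulfate, is the sulfate donor of the last core step. APK1 was at 70.1, 71.0 and 53.4 CPM in wild-type plants and 36.7, 36.3 and 40.2 CPM in the mutant. APK2 was at 50.3, 33.9 and 36.8 CPM in wild-type plants and 24.9, 25.0 and 26.8 CPM in the mutant. In both genes the mutant values were all below the wild-type values, as in 11.4% of all tested features. APK1 had a log2 fold change of -0.77 ± 0.19 (SE) with an edgeR adjusted p of 0.0744, whereas DESeq2 called it lower (adjusted p = 0.0326), as the authors' deposited table did (adjusted p = 0.0267). APK2 had -0.69 ± 0.19 (SE; edgeR adjusted p = 0.0936). With the length trend removed APK1 was at -0.64 and APK2 at -0.58 (edgeR adjusted p = 0.282 and 0.314).

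IPMDH1, the isopropylmalate dehydrogenase of the elongation cycle, was at 52.8 ± 4.48 CPM in wild-type plants and 35.8 ± 3.32 CPM in the mutant (SD, n = 3 per group; log2 fold change -0.56 ± 0.18, SE, edgeR adjusted p = 0.121). MYC3, a bHLH factor that acts with the MYB regulators, had higher values in the mutant, 15.4 ± 1.75 against 8.31 ± 3.81 CPM (SD, n = 3 per group; log2 fold change 0.78 ± 0.27, SE, edgeR adjusted p = 0.145). The groups did not overlap in either gene, for MYC3 by a small gap, from 12.6 CPM in wild-type library 1 to 13.4 CPM in mutant library 3. Such separation was seen in 11.4% of all tested features for lower and in 1688 of 13819 for higher mutant values. MYC3 passed in edgeR without wild-type library 1 (log2 fold change 1.27, adjusted p = 0.0338), but not when the length trend was removed as well (edgeR adjusted p = 0.0911). On all 6 libraries with the length trend removed MYC3 was at 0.69 and IPMDH1 at -0.54 (edgeR adjusted p = 0.412 and 0.312). The authors' deposited table called MYC3 higher (adjusted p = 0.0223), while DESeq2 did not call it (adjusted p = 0.215).

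The indole branch, which shares core enzymes with the aliphatic one, was taken for comparison. Of its 16 listed genes 11 were tested. In edgeR 0 were called (0.116% of all tested features), 2 had an unadjusted p under 0.05 (19.5%), and DESeq2 called 0. Lower values in the mutant were found for 9 (48.8% of all tested features) and higher values for 2, with a median log2 fold change of -0.41. That split moved with the fit: without wild-type library 1, 6 of the 11 genes were lower and the median was -0.12, and with the length trend removed 11 of 11 were lower and the median was -0.23. IGMT5, an indole glucosinolate methyltransferase, was at 23.1 ± 3.46 CPM in wild-type plants and 12.5 ± 0.671 CPM in the mutant (SD, n = 3 per group; log2 fold change -0.91 ± 0.19, SE, edgeR adjusted p = 0.0611), and with the length trend removed it was at -0.83 (edgeR adjusted p = 0.281). GSTF9, a glutathione S-transferase, had a log2 fold change of -0.46, the regulator MYB34 had -0.41 and the methyltransferase gene IGMT1 had -0.41, each with an edgeR adjusted p of at least 0.206. With the length trend removed GSTF9 was at -0.18 (edgeR adjusted p = 0.763), MYB34 at -0.35 and IGMT1 at -0.36. A difference between both branches was not tested.

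**Figure D5:**
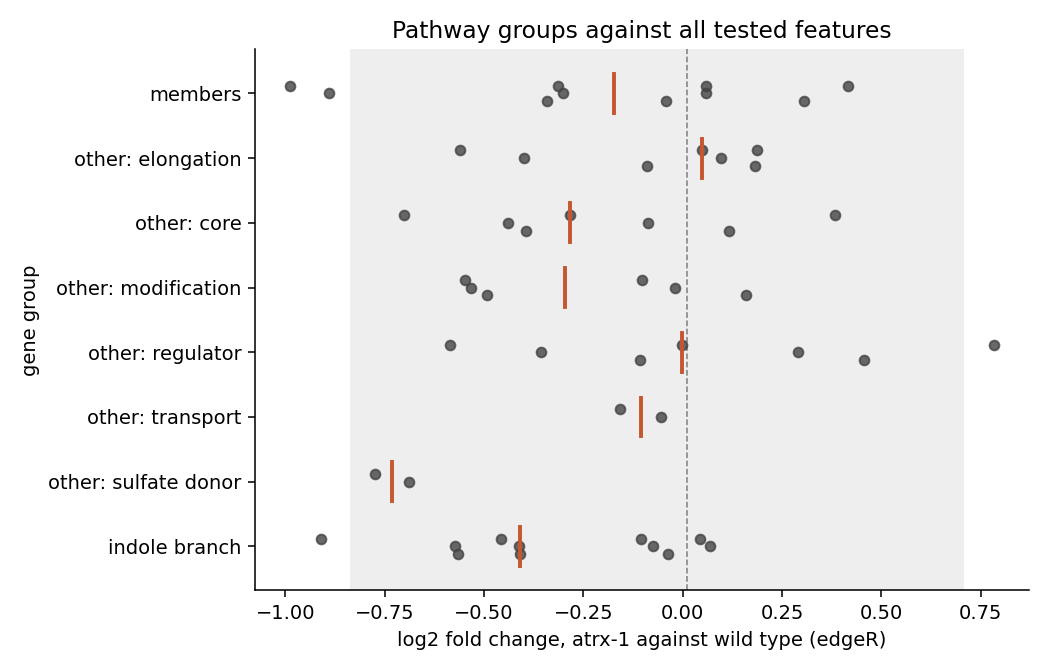
edgeR log2 fold changes of atrx-1 against wild type for the 10 genes (members), the other aliphatic pathway genes by role and the indole branch. Each point is a tested gene, orange bars are medians, the dashed line is the median over all tested features (0.01) and the grey band spans their 5th to 95th percentile (-0.84 to 0.71). Most pathway genes lay inside the band, while AOP2, MAM3 and IGMT5 (-0.91) lay below it and MYC3 (0.78) above it.

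Genes outside the lists were ranked by how close their profile over the 6 libraries came to the mean profile of the 10 genes, measured as the root mean square distance of log2(CPM + 0.5) centred on the gene mean. Among 6847 nuclear genes with at least 10 CPM the closest were AT4G36850, a PQ-loop repeat protein gene (distance 0.0372), OCP3 (0.04), BGAL2, a beta-galactosidase gene (0.0521), PMDH1, a peroxisomal malate dehydrogenase gene (0.0578), and AT4G31860, a protein phosphatase 2C gene (0.0598). The median distance of all these candidates was 0.325. Of the 10 genes themselves BCAT4 was closest to their mean profile (0.129), then MYB28 (0.163), MAM1 (0.177), CYP83A1 (0.19) and CYP79F1 (0.211). The 5 genes named before were all nearer to that profile than any of the 10. They were picked as the closest of 6847 candidates, so no conclusion about the 10 genes is drawn from that. Only BCAT4 of the 10 was below the 5th percentile of the candidate distances (0.151). MAM3 (0.686), CYP79F2 (0.521), GS-OX1 (0.491) and AOP2 (0.467) were farthest from the mean profile, each beyond the median distance of the candidates. Their mean levels, 4.90 to 8.84 CPM, were under the 10 CPM asked of candidates, so that median is no like reference for them. The part of low counts in their distances was not tested. For MAM3 the largest deviation was that of wild-type library 1 (1.38, from 69 counts).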

How the data were processed

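Per the file headers, the authors deposited raw read counts per gene, and these counts entered every test. The deposited normalized signal equals the count over a library-wide size factor, and its ratio to the deposited signal per kb gave gene length. The authors' log2 fold changes and p-values are quoted only where their deposited table is named, and how they were fitted is not known. Tools named in the submitters' processing notes, without roles, are HTSeq 0.6.1, TopHat2 2.0.14, Bowtie2 2.1.0, DESeq, DESeq2 1.6.3 and CASAVA 1.8.2, and the build is TAIR10.

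Genotype was tested over all features with edgeR 4.0.16 (R 4.3.3; TMM scaling, filterByExpr with a minimum count of 10 and total of 15, glmQLFit and glmQLFTest, Benjamini-Hochberg threshold 0.05). Libraries were grouped by the labelled genotype. DESeq2 1.42.0 was an alternative. Ratios within libraries were compared by exact permutation tests. The filter kept 13819 of 23640 features. Standard errors came from the F statistic. To remove the length trend, a loess curve of each library's deviation on log2 length over nuclear genes entered as an offset. Scripts were tested on simulated data.

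Coding sequences were read from TAIR10.1 with its own annotation. Of 22112 table genes with a coding region there, 95.8% had it inside the table's gene bounds.

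The 10 genes, the lists and the tests were chosen with earlier results of these data known. Named besides the 10 genes were ATRX, the partners in the ratios, the 4 genes with the smallest p in each list, list genes past the threshold in any edgeR fit of all 6 libraries, and the 5 genes nearest in profile.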

Additional observations from a re-analysis of the deposited data

How the results depend on the processing

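No setting called any of the 10 glucosinolate genes, among 20 alternatives that covered scaling, tool, filter, nuclear genes, length trend, replicate block and left-out libraries, although DESeq2 gave 4 of them no adjusted p. The count over all features, 16, was 38 with RLE size factors, 211 with DESeq2, 592 without a low-count filter, 0 with the length trend removed, 34 with the replicate block and 1 with the replicate block and the length trend removed. It was 378, 104 and 119 with wild-type library 1, 2 or 3 left out and 0, 0 and 3 with mutant library 1, 2 or 3 left out (1575 and 1733 features at an unadjusted p under 0.05 in the cases of 0). With the length trend also removed, it ranged from 0 to 20 (792 to 1662 features at an unadjusted p under 0.05 where it was 0). The cause was not tested. AOP2, BCAT4, CYP83A1, MYB28 and UGT74C1 kept their direction in all 20, with AOP2 between -1.16 and -0.64. Leaving out wild-type library 2 brought BCAT4 from -0.31 to -0.15 (-0.098 with the length trend removed), CYP83A1 from -0.30 to -0.19, MYB28 from -0.34 to -0.23 and UGT74C1 from 0.31 to 0.46. Leaving out wild-type library 1 gave CYP83A1 -0.45 and UGT74C1 0.20, and leaving out mutant library 2 gave UGT74C1 0.17 (0.12 with the length trend removed). MAM1 changed sign without a filter (0.0019), and CYP79F1 with the length trend removed (-0.012) and with the block as well (-0.011). When libraries were left out, MAM1 ranged from -0.23 to 0.20 with the length trend kept and from -0.30 to 0.10 with it removed, and was at 0.0034 without mutant library 3. CYP79F1 ranged from -0.12 to 0.20 and from -0.19 to 0.11, with -0.011 and -0.086 when mutant library 1 was dropped. MAM3 ranged from -1.49 to 0.035 and from -1.60 to -0.052, and CYP79F2 from 0.052 to 0.99 and from -0.079 to 0.88. GS-OX1 ranged from -0.40 to 0.64 and from -0.42 to 0.61, with -0.020 and -0.059 when mutant library 1 was dropped, and -0.023 when mutant library 2 and the length trend were. The difference in log2 ratio reached from -0.028 to 0.99 for MAM1 to MAM3 and from -0.0054 to 0.79 for MYB28 to MYB29. The replicate numbers are no pairing given by the labels, and deviations of same-numbered libraries correlated at 0.0644, 0.0571 and -0.0791. With the block AOP2 was at -0.99 (edgeR adjusted p = 0.145). IGMT5 passed without a filter (edgeR adjusted p = 0.0253) and in no other of its 20 alternatives, whose edgeR or DESeq2 adjusted p ran from 0.0511 to 0.877, with 0.281 for the length trend removed and 0.107 for the block. Depth limits MAM3, CYP79F2 and GS-OX1, each under 10 counts in wild-type library 2.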
